A study of Homo sapiens with 12 samples.

Results

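Copying the genome needs a set of proteins that mark origins, load and start the MCM helicase, make DNA behind it and wrap the new strands in chromatin. The 48 genes described here encode that machinery. They were chosen by gene name from the 58735 genes of the count table, and all 48 passed the filter on low counts among the 15378 genes tested. RNA was sequenced from Ovcar8, an established high-grade serous ovarian cancer line, in 4 groups of 3 libraries. All cells had been transduced with lentivirus and selected with puromycin. The first group was the control, and the second overexpressed CCNE1, which encodes cyclin E1, the partner of the kinase CDK2 at entry into S phase. The other groups carried CCNE1 overexpression together with a short hairpin RNA against TMLHE, the first enzyme of carnitine synthesis. They are called shTMLHE 1 and shTMLHE 2 after their hairpins. The labels name no hairpin for the control or CCNE1 groups, and do not say whether the lines were clones or whether the 3 libraries of a group were separate cultures, so p-values measure the spread between these libraries, which may be technical.

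Origins are licensed before S phase, when the origin recognition complex and CDC6, with CDT1, load the ring of MCM2 to MCM7 onto DNA. Geminin (GMNN) and the CDT1-degrading adaptor DTL block a second loading, and the kinase CDC7 with its activator DBF4 starts the loaded helicase together with CDC45 and the GINS complex. Polymerases alpha, delta and epsilon then extend DNA, held by the clamp PCNA, which replication factor C loads, and many of these genes are known targets of the E2F transcription factors that cyclin E and CDK2 release from RB.

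Library totals ranged from 14054101 to 16616963 counts in control, 15814583 to 21457503 with CCNE1, 14945893 to 16302525 with shTMLHE 1 and 14558444 to 19945180 with shTMLHE 2. A member had between 20 and 12998 counts in a library. Levels are given in CPM, the counts divided by the TMM-scaled library size. CCNE1 itself rose from 33.1 ± 1.28 CPM in control to 1001 ± 34 CPM in its group, and TMLHE averaged 15.7 ± 2.69 CPM there, 0.956 ± 0.286 CPM in the shTMLHE 1 group and 0.482 ± 0.241 CPM in the shTMLHE 2 group (SD, n = 3). The epithelial and serous markers PAX8, KRT7, KRT8 and KRT18 were present, while MUC16 was at 0 in every library, WT1 was below 1 CPM, KRT19 was at 0 to 0.699 CPM, EPCAM at 1.36 to 4.48 CPM and CDH1 at 0.379 to 4.96 CPM. Summed leukocyte markers reached at most 2.49 CPM and endothelial markers at most 4.74 CPM. The list of 6 fibroblast markers summed to 777 to 831 CPM in control, 518 to 542 with CCNE1, 1719 to 1820 with shTMLHE 1 and 1534 to 1591 with shTMLHE 2. Nearly all of it was COL1A1, PDGFRB stood at 14.5 to 54.3 CPM, and DCN was at 0 in every library. The groups also differed in base composition: the mean GC content of counted genes, weighted by counts, was 54.1 to 54.2% in control, 53.8 to 53.9% with CCNE1, 52.7 to 52.9% with shTMLHE 1 and 51.2 to 51.3% with shTMLHE 2. In the same order, ribosomal protein genes took 12.5 to 13.1, 14.1 to 14.5, 7.43 to 7.79 and 7.77 to 7.9% of counts, mitochondrial genes took 4.06 to 4.32, 3.13 to 3.2, 5.23 to 5.53 and 2.87 to 2.99%, and the TMM factors were 0.86 to 0.864, 0.847 to 0.853, 1.11 to 1.12 and 1.22 to 1.23. The part of these marker lists and count shares in the results was not tested.

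Most of the replication machinery was higher with CCNE1 overexpression, and with each TMLHE hairpin many members were lower and others higher than with CCNE1 alone. With CCNE1, 36 of 48 members (75%) rose, against 25.1% of all tested genes, and 3 fell (MCM3, POLA2 and RPA2), against 19.1%. The median log2 fold change was 0.39 over the members and 0.05 over all tested genes. With shTMLHE 1 against CCNE1, 30 members (62.5%) fell, against 30.3% of all tested genes, and 7 rose, against 30.4%, with a median of -0.47 beside 0.03 over all genes. With shTMLHE 2 against CCNE1, 25 members (52.1%) fell, against 36.2%, and 16 (33.3%) rose, against 36.8%, with a median of -0.31 beside 0.03. The count for members that rose with shTMLHE 2 is near its background. The plot of all 48 members shows these changes by role.

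The hairpin counts depended on how libraries were scaled, and with shTMLHE 2 the majority of calls turned from lower to higher. Scaling by total counts in place of TMM moved the median of all genes by 0.39 with shTMLHE 1 and 0.53 with shTMLHE 2, and gave 20 members lower and 16 higher with the first hairpin, against 16.2 and 51% of all genes. With the second it gave 13 lower and 29 higher, against 22.4 and 54.1%. The share of member calls that were higher went from 18.9 to 44.4% and from 39 to 69%, and that of all calls from 50 to 75.9% and from 50.4 to 70.7%. Changes are therefore given relative to the TMM scale, and a call that passed in the same direction under TMM, RLE, total counts and after removal of the trend on GC content and transcript length is called stable to scaling. With CCNE1, 27 members rose stably, against 15.3% of all tested genes, and RPA2 alone fell stably, against 13.9%. With shTMLHE 1, 20 fell stably, against 14.7%, and 6 rose, against 22.2%. With shTMLHE 2, 12 (25%) fell stably, against 17.2%, and 11 (22.9%) rose, against 22.4%, which is near background.

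**Figure D1:**
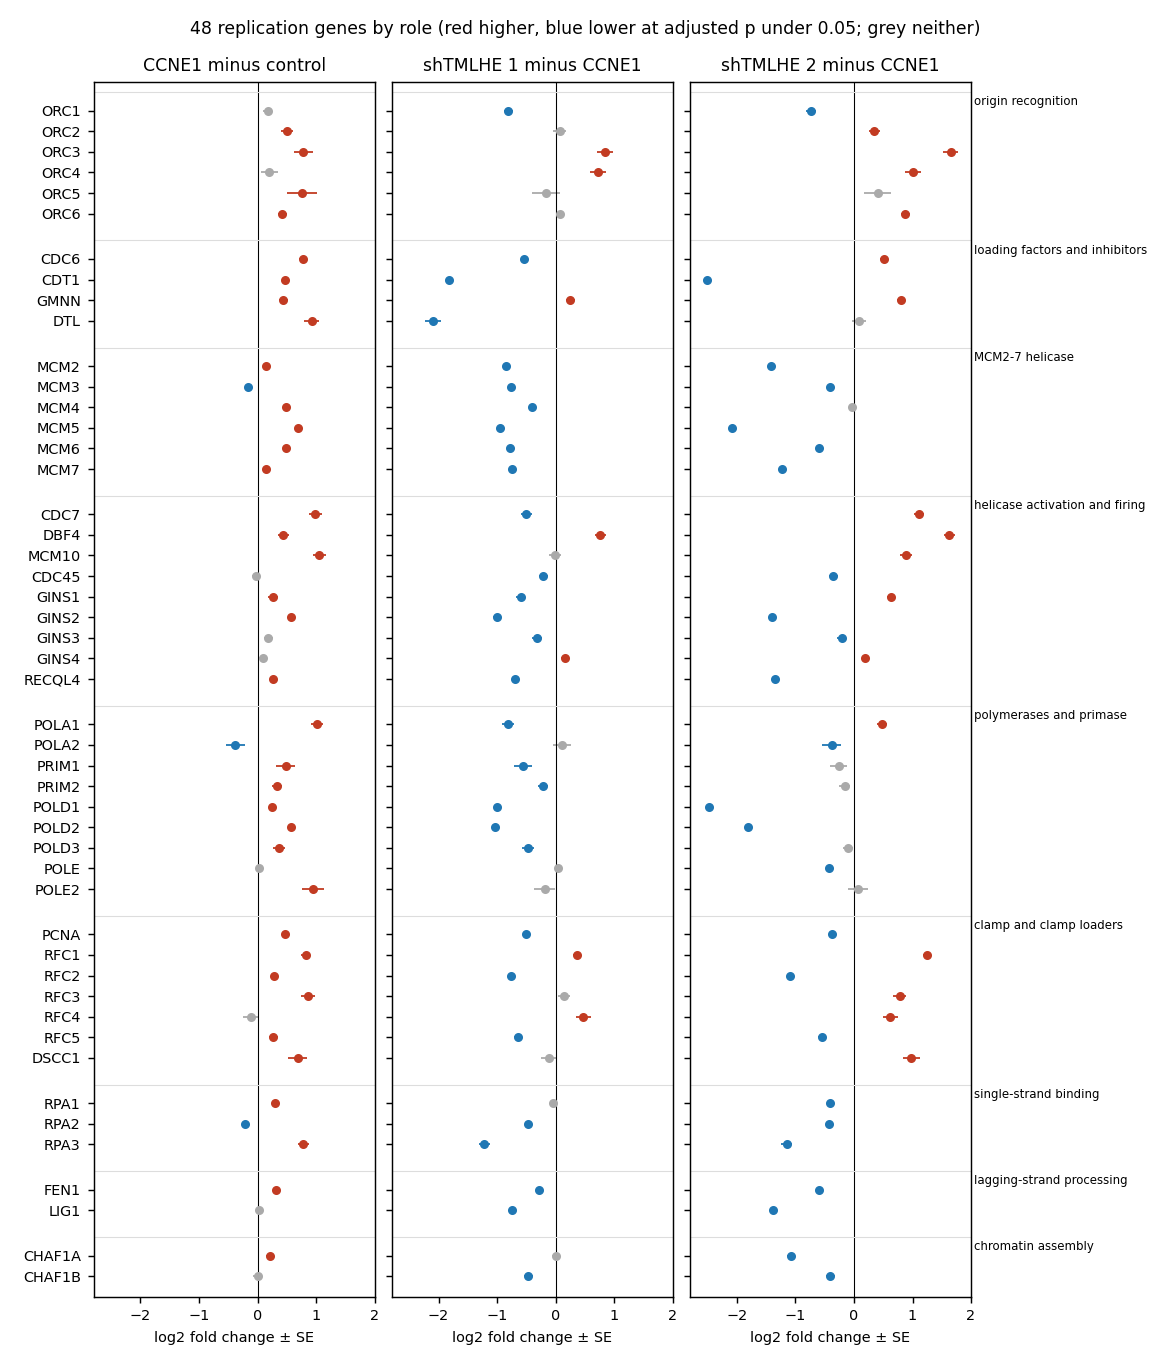
Log2 fold change with its standard error (x axes) of the 48 genes (y axis, grouped by role) in 3 comparisons of 3 against 3 libraries. Red points passed as higher and blue points as lower; CCNE1 shows 36 red and 3 blue points, shTMLHE 1 7 red and 30 blue, and shTMLHE 2 16 red and 25 blue.

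The hairpin comparisons share the CCNE1 libraries, so their values are given side by side and their joint counts are descriptions. Lower with both hairpins were 21 members, against 23.6% of all tested genes, and 7 were higher with both (ORC3, ORC4, GMNN, DBF4, GINS4, RFC1 and RFC4), against 23.2%. Of the 21, ORC1, CDT1, MCM2, MCM5, MCM7, GINS2, POLD1, POLD2, RFC2, RPA3 and LIG1 were stable to scaling, 11 genes, against 9.39% of all genes. Of the 7, all but ORC4 were stable, 6 genes (12.5% of the 48 members), against 14% of all genes, which is near background. Higher with CCNE1 and lower with both hairpins were 14 members, against 7.37% of all genes opposed in either direction, and 9 of them stably, against 3.6%. These were CDT1, MCM2, MCM5, MCM7, GINS2, POLD1, POLD2, RFC2 and RPA3. All 3 comparisons use the CCNE1 libraries, on opposite sides.

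The starts of the members were searched for E2F strings, since E2F is the known regulator of many of them. RefSeq windows (GRCh38.p14) of 250 bases before to 50 after a gene start were matched by symbol for 40 members, with 50 windows; those not matched were MCM4, MCM5, GINS4, RECQL4, POLD3, DSCC1, RPA2 and RPA3. One string searched was TTCCCGC, which has a run of C in its middle. Another was TTGGCGC, which has a pair of G there. The remaining forms were TTCGCGC, which alternates, and, as the last form, TTGCCGC. Read on both strands, at least 1 of them was present in 29 of the 40 (72.5%), against 15.3% of 27305 genes with a window (13% of 35116 windows) and 25% of the 10825 tested genes with one. The median GC content of the windows was 64.5% for members and 64.7% for tested genes. CCAAT was present in 23 members (57.5%, against 39.7% of genes), and the cell cycle homology region (CHR) strings, TTTGAA or else its variant TTCGAA, in 2 (5%, against 19.5%). No E2F string contains another, though neighbours can share bases, as in MCM6.

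E2F strings were found on members that fell and on members that rose. They were present in 13 of 17 members with a window that were lower with both hairpins, in 4 of 6 that were higher with both, in all 4 called in opposite directions, and in 21 of 30 that rose with CCNE1. A match is a description of the letters and not of binding. For 3 members the 250 bases before the start are shown, as RefSeq gives them 5′ to 3′ on the gene's strand, with E2F strings in capitals: MCM6 (chr2:135876444-135876693, minus strand), which fell with both hairpins and has a pair of overlapping strings at 2 places, and CDC7 (chr1:91500601-91500850, plus strand) and POLA1 (chrX:24693668-24693917, plus strand), which the hairpins moved apart.
MCM6: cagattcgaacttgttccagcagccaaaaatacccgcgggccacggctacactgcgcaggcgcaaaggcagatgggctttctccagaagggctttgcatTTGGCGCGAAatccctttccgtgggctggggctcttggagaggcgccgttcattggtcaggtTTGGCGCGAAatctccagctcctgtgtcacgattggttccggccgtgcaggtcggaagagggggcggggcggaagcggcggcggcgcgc
CDC7: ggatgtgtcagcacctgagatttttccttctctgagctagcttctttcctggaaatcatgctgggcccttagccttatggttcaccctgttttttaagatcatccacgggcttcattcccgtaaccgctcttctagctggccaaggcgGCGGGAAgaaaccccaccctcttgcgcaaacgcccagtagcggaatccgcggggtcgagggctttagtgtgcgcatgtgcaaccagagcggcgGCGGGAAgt
POLA1: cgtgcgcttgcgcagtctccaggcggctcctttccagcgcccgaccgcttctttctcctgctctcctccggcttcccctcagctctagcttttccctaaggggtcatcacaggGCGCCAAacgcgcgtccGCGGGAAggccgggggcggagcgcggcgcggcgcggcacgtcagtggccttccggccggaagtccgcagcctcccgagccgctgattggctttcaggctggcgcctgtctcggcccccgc

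For 7 further members, 30 bases around the first E2F string are shown in the same way, so that sites of genes that fell can be read beside those of genes that rose. CDT1 (chr16:88803743-88803772, plus strand), GINS2 (chr16:85688967-85688996, minus strand), ORC1 (chr1:52404427-52404456, minus strand) and LIG1 (chr19:48170439-48170468, minus strand) fell with both hairpins. ORC3 (chr6:87590112-87590141, plus strand) and RFC4 (chr3:186806474-186806503, minus strand) rose with both, and CDC6 (chr17:40287876-40287905, plus strand) was moved in opposite directions. The string GCGGGAA, which is the first string read on the other strand, stands in CDT1 and GINS2 as in ORC3.
CDT1: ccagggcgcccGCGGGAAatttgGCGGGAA
GINS2: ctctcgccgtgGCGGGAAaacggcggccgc
ORC1: ggccacgccgaTTGGCGCGAAgttttcttt
LIG1: cttcaccccttTTCCCGCcctcctcccatt
ORC3: cgcgagggcgcGCGGGAAatcccgagtgca
RFC4: ctaccggcgtaTTCCCGCcctgcttttcgc
CDC6: gccattcggatTTGGCGCgagcgcggctgg

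Among the licensing factors, CDT1 rose with CCNE1 and fell with each hairpin. CDT1 (ENSG00000167513, chromosome 16, 88803213 to 88809258, plus strand) brings the MCM ring to origins. Its libraries stood at 377, 403 and 386 CPM in control, 537, 529 and 540 with CCNE1, 148, 147 and 160 with shTMLHE 1, and 96.8, 98.9 and 88.5 with shTMLHE 2. No groups overlapped, with CCNE1 highest and shTMLHE 2 lowest. The log2 fold changes were 0.46 ± 0.04 with CCNE1 (adjusted p = 2.59e-12), -1.82 ± 0.04 with shTMLHE 1 (adjusted p = 6.79e-31) and -2.50 ± 0.04 with shTMLHE 2 (adjusted p = 2.46e-35). Once the trend was removed the hairpin values were -1.35 and -1.27.

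GMNN, whose protein binds and inhibits CDT1, rose with CCNE1 as CDT1 did, but went the other way with the hairpins. Its libraries held 30.7, 30.4 and 32.9 CPM in control, 41.2, 40.5 and 46.2 with CCNE1, 50, 50.7 and 51.6 with shTMLHE 1, and 73.5, 79.2 and 69.8 with shTMLHE 2. The groups did not overlap and stood in that order. GMNN rose by 0.44 ± 0.08 with CCNE1 (adjusted p = 7.56e-06), by a further 0.25 ± 0.07 with shTMLHE 1 (adjusted p = 0.00209) and by 0.80 ± 0.07 with shTMLHE 2 (adjusted p = 2.17e-13); the rise with CCNE1 was 0.11 and no longer passed with the trend removed. On the per-length scale of the deposited FPKM, the ratio of CDT1 to GMNN levels within a library was 8.70 to 9.83 in control and 8.68 to 9.69 with CCNE1, but 2.15 to 2.30 with shTMLHE 1 and 0.927 to 0.977 with shTMLHE 2. This ratio does not depend on library scaling, but the genes lie far apart in GC content, at 65.8% for CDT1 and 41.4% for GMNN.

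CDC6, which joins the origin recognition complex to receive CDT1 and MCM, divided the hairpins. Its libraries held 58.2, 51.0 and 47.1 CPM in control, 89.3, 92.3 and 85.3 with CCNE1, 66.0, 56.8 and 60.8 with shTMLHE 1, and 122, 126 and 133 with shTMLHE 2. The shTMLHE 1 libraries overlapped control, and those of shTMLHE 2 were above every other. CDC6 rose by 0.77 ± 0.07 with CCNE1 (adjusted p = 2.51e-12), fell by 0.54 on the log2 scale with shTMLHE 1 (SE 0.06, adjusted p = 1.43e-09) and rose by 0.51 ± 0.06 with shTMLHE 2 (adjusted p = 8.72e-10). The last value was 0.06 and did not pass with the trend removed. DTL, an adaptor of the ubiquitin ligase that degrades CDT1 in S phase, also rose with CCNE1, by 0.92. Its libraries held 13.7, 10.2 and 13.2 CPM in control, 23.9, 19.3 and 27.6 with CCNE1, 5.31, 5.48 and 5.63 with shTMLHE 1, and 23.4, 23.6 and 27.5 with shTMLHE 2. The shTMLHE 1 libraries were below all others, and those of shTMLHE 2 overlapped CCNE1. The log2 fold changes were -2.10 ± 0.14 (adjusted p = 5.64e-16) with shTMLHE 1 and 0.08 ± 0.12 (adjusted p = 0.585) with shTMLHE 2. The latter was -0.70 with the trend removed, passing as lower, but 0.60 by total counts, passing as higher. The hairpins differed by -2.18 ± 0.14 (adjusted p = 1.29e-16).

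The origin recognition complex, the 6-subunit platform that sits on origins, moved apart by subunit. ORC1 (chromosome 1, 52372829 to 52404459, minus strand) fell with both hairpins, while ORC3 and ORC4 rose. ORC1 libraries held 47.3, 44.7 and 50.2 CPM in control, 59.2, 47.0 and 54.6 with CCNE1, 32.3, 29.9 and 29.2 with shTMLHE 1, and 31.0, 31.6 and 34 with shTMLHE 2. Every hairpin library lay below every control and CCNE1 library, and the hairpin groups overlapped. ORC1 differed by 0.17 ± 0.08 with CCNE1 (adjusted p = 0.078), and fell by 0.81 (SE 0.08, adjusted p = 3.82e-11) and 0.73 (SE 0.08, adjusted p = 1.65e-10) on the log2 scale with the hairpins. Without CCNE1 replicate 2 the CCNE1 value was 0.26 and passed (adjusted p = 0.00897).

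ORC3 stood at 5.23, 8.48 and 5.22 CPM in control, 11.7, 11.7 and 9.06 with CCNE1, 19.5, 20.9 and 17.9 with shTMLHE 1, and 35.8, 32.2 and 34 with shTMLHE 2. The groups rose in that order without overlap. Its log2 fold changes were 0.78, 0.84 and 1.65 with CCNE1, shTMLHE 1 and shTMLHE 2, all passing, and 0.35, 0.44 and 0.70 with the trend removed, where the first no longer passed. ORC4 rose by 0.72 and 1.01 with the hairpins, but stood at 0.02 and -0.27 with the trend removed, neither passing. ORC6 rose with CCNE1 and shTMLHE 2, from 27.1, 26.2 and 24.6 CPM in control to 37.3, 33.3 and 33.9 with CCNE1 and 63.7, 63.1 and 64.8 with shTMLHE 2, while shTMLHE 1, at 37.1, 36.8 and 35.3 CPM, overlapped CCNE1. The values were 0.42 ± 0.08 (adjusted p = 3.55e-05), 0.07 ± 0.07 (adjusted p = 0.444) and 0.88 ± 0.07 (adjusted p = 5.61e-14) in the order CCNE1, shTMLHE 1, shTMLHE 2. ORC2 rose with CCNE1, by 0.50, and with shTMLHE 2, by 0.35. With the trend removed the first was 0.18 and did not pass, and the second reversed to -0.24. ORC5, the least counted member, rose with CCNE1 by 0.76, but stood at 0.42 with the trend removed, which did not pass, and at 0.51 without control replicate 3, which did not pass either (adjusted p = 0.125).

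**Figure D2:**
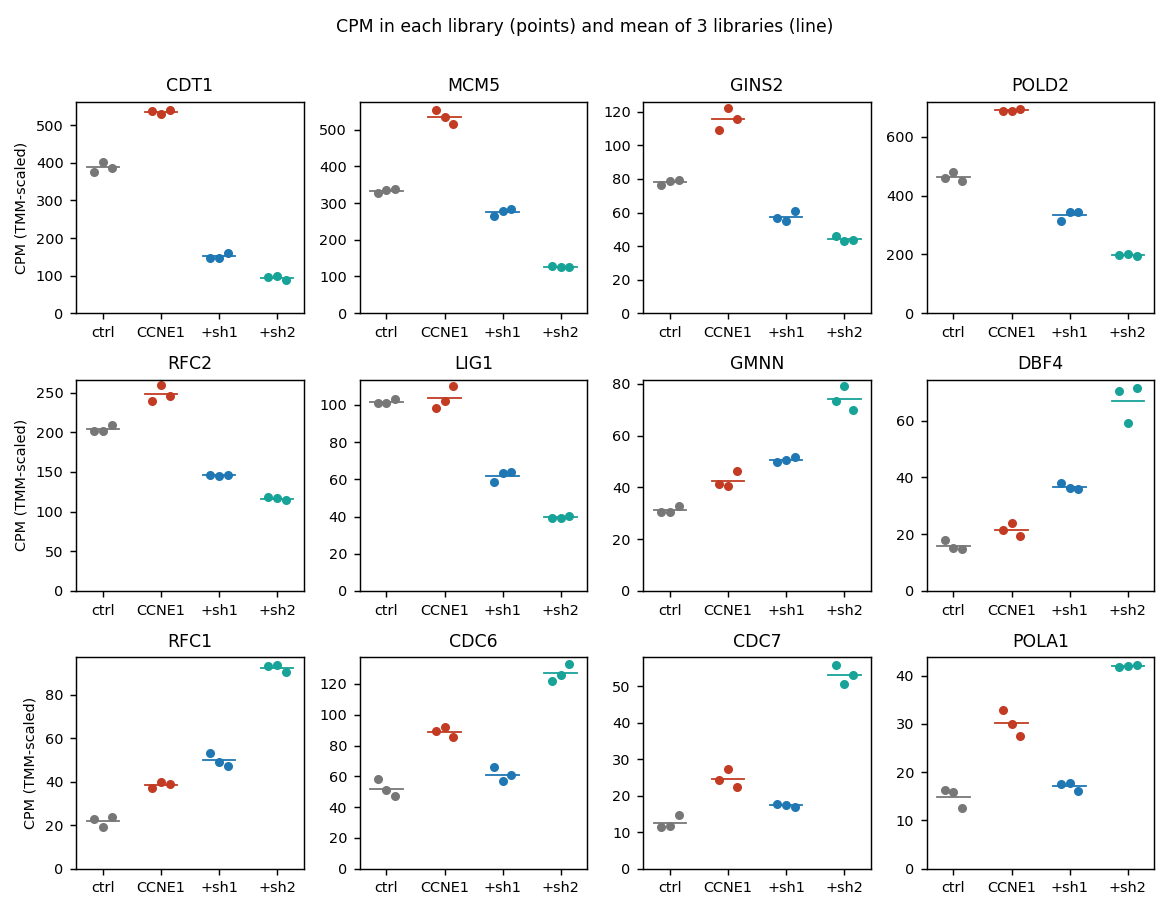
CPM (y axis, linear from 0) of 12 members in each of the 12 libraries (points) with the mean of each group of 3 (line); ctrl is control, and +sh1 and +sh2 are CCNE1 with shTMLHE 1 or 2. CDT1, MCM5, GINS2, POLD2 and RFC2 are highest with CCNE1 and lowest with shTMLHE 2, GMNN, DBF4 and RFC1 climb from control to shTMLHE 2, and CDC6, CDC7 and POLA1 dip with shTMLHE 1 and peak with shTMLHE 2.

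The MCM2 to MCM7 ring, the core of the replicative helicase, was lower on the TMM scale in all 6 subunits with shTMLHE 1 and in all but MCM4 with shTMLHE 2. With CCNE1, 5 of the 6 rose and MCM3 fell. On the TMM scale the log2 fold changes spanned -0.16 to 0.68 with CCNE1, -0.95 to -0.40 with shTMLHE 1 and -2.08 to -0.03 with shTMLHE 2. By total counts, MCM4 no longer passed with shTMLHE 1, MCM6 no longer passed with shTMLHE 2, and MCM3 and MCM4 were higher with shTMLHE 2, at 0.11 and 0.49. MCM2, MCM5 and MCM7 fell with each hairpin under every scaling.

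MCM5 (ENSG00000100297, on chromosome 22) had the largest fold changes of the ring on the TMM scale in each of the 3 comparisons. Its libraries held 326, 336 and 339 CPM in control, 554, 533 and 516 with CCNE1, 265, 279 and 283 with shTMLHE 1, and 128, 126 and 126 with shTMLHE 2. No groups overlapped, with CCNE1 highest and shTMLHE 2 lowest. The log2 fold changes were 0.68 ± 0.04 (adjusted p = 6.25e-18), -0.95 ± 0.04 (adjusted p = 1.3e-23) and -2.08 ± 0.04 (adjusted p = 2.34e-34), and -0.71 and -1.44 for the hairpins with the trend removed. MCM3 held 196, 177 and 191 CPM in control, 158, 186 and 160 with CCNE1, 101, 99.9 and 96.4 with shTMLHE 1, and 126, 128 and 124 with shTMLHE 2. Control and CCNE1 overlapped for MCM3, and the fall of 0.16 (SE 0.05, adjusted p = 0.0102) no longer passed without control replicate 1 (-0.13), CCNE1 replicate 1 (-0.12) or CCNE1 replicate 3 (-0.12), nor with the trend removed (-0.09). Its falls with the hairpins were 0.76 (SE 0.05, adjusted p = 5.91e-16) and 0.41 (SE 0.05, adjusted p = 2.23e-09).

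The other subunits completed the pattern. MCM2 held 325 to 351 CPM with CCNE1, 185 to 195 with shTMLHE 1 and 124 to 131 with shTMLHE 2, with log2 fold changes of -0.85 and -1.42 for the hairpins. MCM7 held 691 to 715, 404 to 434 and 292 to 313 CPM in the same groups, with -0.75 and -1.23. MCM6 fell by 0.78 and 0.59 and MCM4 by 0.40 with shTMLHE 1. The ring holds its 6 subunits in equal number, so their levels were also compared per length. By FPKM the lowest subunit was MCM6 in all control, CCNE1 and shTMLHE 1 libraries, and MCM5 in all shTMLHE 2 libraries, and MCM7 was the highest in every library. The ratio of MCM5 to MCM4 FPKM was 1.14 to 1.23 in control, 1.29 to 1.40 with CCNE1, 0.855 to 0.967 with shTMLHE 1 and 0.316 to 0.338 with shTMLHE 2. MCM5 has 57.5% GC and MCM4 50%.

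**Figure D3:**
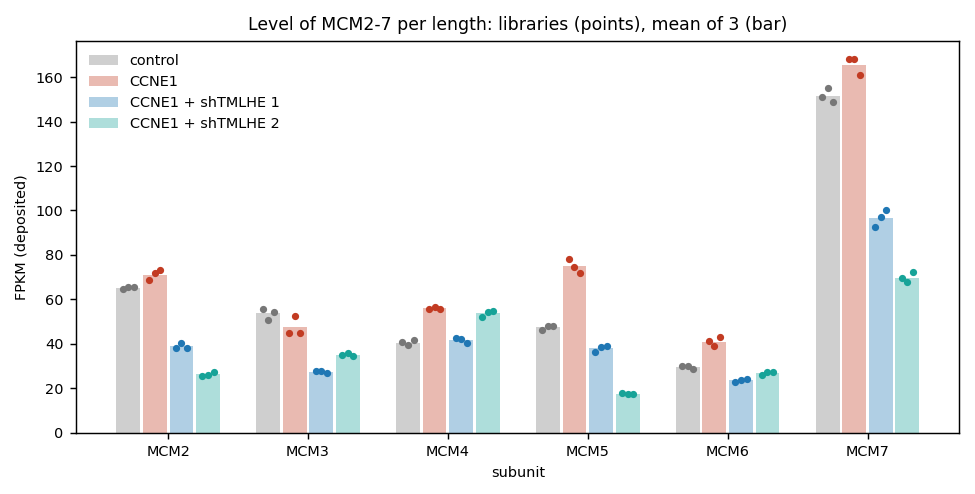
Deposited FPKM (y axis, from 0) of the 6 subunits of the MCM ring in each library (points) and as the mean of 3 (bars), by group. MCM7 is the highest subunit in every group, and MCM5 falls from a mean of 74.8 with CCNE1 to 17.5 with shTMLHE 2, while MCM4 stays at 53.8.

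Firing factors split into genes that followed the ring and genes that went against it. GINS2, a subunit of the GINS complex that completes the active helicase, held 76.6, 78.7 and 79.1 CPM in control, 109, 122 and 116 with CCNE1, 57.0, 54.8 and 61.1 with shTMLHE 1, and 46.1, 42.8 and 43.7 with shTMLHE 2. No groups overlapped. It rose by 0.57 ± 0.06 with CCNE1 (adjusted p = 1.48e-10) and fell by 1.01 (SE 0.06, adjusted p = 3.27e-18) and 1.39 (SE 0.06, adjusted p = 6.69e-23) with the hairpins. RECQL4, a helicase-like initiation factor, held 210, 221 and 207, then 255, 250 and 259, then 159, 158 and 157, then 99.1, 103 and 100 CPM in control, CCNE1, shTMLHE 1 and shTMLHE 2. Its groups did not overlap either, and its values were 0.26 ± 0.04 (adjusted p = 1.07e-06), -0.69 ± 0.04 (adjusted p = 4.6e-18) and -1.34 ± 0.04 (adjusted p = 1.82e-27). RECQL4 has 65.4% GC, and with the trend removed its hairpin values were -0.17, which passed, and -0.08, which did not.

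DBF4, which activates the CDC7 kinase, rose throughout. It held 17.8, 15.2 and 14.7 CPM in control, 21.4, 23.9 and 19.5 with CCNE1, 37.9, 36.3 and 35.8 with shTMLHE 1, and 70.4, 59.1 and 71.6 with shTMLHE 2, with no overlap. The values were 0.44 ± 0.10 (adjusted p = 0.000637), 0.76 ± 0.09 (adjusted p = 2.99e-09) and 1.63 ± 0.09 (adjusted p = 2.73e-19), and 0.03, 0.37 and 0.71 with the trend removed, where the first no longer passed. CDC7 itself (chromosome 1, 91500893 to 91525764, plus strand) held 11.4, 11.7 and 14.7 CPM in control, 24.2, 27.2 and 22.3 with CCNE1, 17.7, 17.6 and 16.8 with shTMLHE 1, and 55.7, 50.5 and 53.2 with shTMLHE 2. Its groups did not overlap, and the hairpins moved it in opposite directions from CCNE1. CDC7 rose by 0.98 ± 0.11 with CCNE1 (adjusted p = 1.35e-09), fell by 0.50 (SE 0.10, adjusted p = 3.94e-05) with shTMLHE 1 and rose by 1.11 ± 0.09 with shTMLHE 2 (adjusted p = 9.12e-14). By total counts the fall was 0.11 and did not pass, while with the trend removed both calls remained, at -0.72 and 0.48.

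GINS1 showed the same split. Its libraries held 35.6, 41.6 and 39.8 CPM in control, 44.8, 43.7 and 51.5 with CCNE1, 31.1, 30.9 and 30.6 with shTMLHE 1, and 70.9, 73.1 and 72.1 with shTMLHE 2. No groups overlapped. The values were 0.26 ± 0.08 (adjusted p = 0.00492), -0.60 ± 0.08 (adjusted p = 8.24e-09) and 0.63 ± 0.07 (adjusted p = 2.77e-10), and the hairpin calls were stable to scaling in each direction. The CCNE1 value was 0.08 with the trend removed, 0.19 without control replicate 1 and 0.18 without CCNE1 replicate 3, and then did not pass. In all, 4 members (CDC6, CDC7, GINS1 and POLA1) were called in opposite directions by the hairpins, against 5.81% of all tested genes.

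Of the remaining firing factors, CDC45, GINS3 and GINS4 changed less. CDC45, the helicase cofactor that joins MCM and GINS, held 53.9, 55.5 and 50.3 CPM in control, 50.7, 53.8 and 51.7 with CCNE1, 45.6, 46.6 and 42.4 with shTMLHE 1, and 41.6, 42.4 and 38.5 with shTMLHE 2. Control and CCNE1 overlapped, and the hairpin libraries were lower than both. The values were -0.03 ± 0.07 (adjusted p = 0.754), -0.21 ± 0.07 (adjusted p = 0.00713) and -0.35 ± 0.07 (adjusted p = 2.25e-05). The falls became 0.18 and 0.18 by total counts, both passing as higher. They were -0.01 and -0.08 with the trend removed, neither passing. GINS3 held 33.2, 31.5 and 37.6 CPM in control, 42.5, 37.7 and 36.1 with CCNE1, 30.4, 31.5 and 31.4 with shTMLHE 1, and 33.7, 32.8 and 34 with shTMLHE 2. The CCNE1 libraries were above both hairpin groups and overlapped control.

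GINS3 gave 0.18 ± 0.08 (adjusted p = 0.0744), -0.32 ± 0.08 (adjusted p = 0.00107) and -0.21 ± 0.08 (adjusted p = 0.0213). The first passed without control replicate 3 (0.26) or CCNE1 replicate 3 (0.23). The last did not pass without CCNE1 replicate 1 (-0.14) or shTMLHE 2 replicate 2 (-0.19), and by total counts the hairpin values were 0.08 and 0.32, of which the second passed as higher. With the trend removed they were -0.17 and 0.00, neither passing. GINS4 held 56.8, 55.4 and 63.8 CPM in control, 60.6, 61.5 and 65.2 with CCNE1, 70.3, 70.6 and 67.2 with shTMLHE 1, and 72.5, 71.4 and 70.4 with shTMLHE 2. Its hairpin libraries were above all others by a few CPM. The values were 0.09 ± 0.06 (adjusted p = 0.25), 0.15 ± 0.06 (adjusted p = 0.0278) and 0.19 ± 0.06 (adjusted p = 0.00384), and the shTMLHE 1 value did not pass without any 1 of 4 libraries (CCNE1 replicates 1 and 2 and shTMLHE 1 replicates 1 and 2; 0.13 to 0.14). Some members share exon bases with another gene, and the strand setting of the counting is not known. The shared part is 23.6% for GINS4, 23.6% for MCM2, 21.6% for PRIM1, 10.9% for GINS3 and 10.6% for RFC5. MCM10, which binds the starting helicase, had the largest rise of the 48 members with CCNE1, by 1.05. It rose with shTMLHE 2 by 0.89.

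Of polymerase delta, which copies mainly the lagging strand, POLD1 and POLD2 fell with both hairpins. POLD2 (chromosome 7), its second subunit, held 461, 479 and 451 CPM in control, 688, 688 and 694 with CCNE1, 315, 345 and 345 with shTMLHE 1, and 199, 200 and 193 with shTMLHE 2. No groups overlapped, and the CCNE1 group was the highest. The values were 0.57 ± 0.04 (adjusted p = 4.35e-16), -1.04 ± 0.04 (adjusted p = 4.38e-25) and -1.81 ± 0.04 (adjusted p = 6.22e-33), with -0.46 and -0.75 for the hairpins once the trend was removed. POLD1, the catalytic subunit, held 221 to 261 CPM with CCNE1, 120 to 123 with shTMLHE 1 and 41.3 to 45.4 with shTMLHE 2. It fell by 1.00 and 2.48 on the log2 scale, and by 0.65 and 1.43 with the trend removed. POLD3 rose with CCNE1, by 0.37, and fell with shTMLHE 1, by 0.47, but stood at 0.18 with CCNE1 with the trend removed and at -0.07 with shTMLHE 1 by total counts, neither passing. With shTMLHE 2 it gave -0.10 (adjusted p = 0.346). Its value there was 0.43 by total counts, which passed as higher, and -0.40 with the trend removed, which passed as lower.

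POLA1, the catalytic subunit of polymerase alpha, which starts each strand, held 16.4, 15.8 and 12.5 CPM in control, 32.9, 30 and 27.4 with CCNE1, 17.5, 17.7 and 16.2 with shTMLHE 1, and 41.7, 41.9 and 42.3 with shTMLHE 2. The shTMLHE 1 libraries overlapped control, and the shTMLHE 2 libraries were the highest. It rose by 1.01 ± 0.10 with CCNE1 (adjusted p = 2.61e-10), fell by 0.81 (SE 0.10, adjusted p = 3.84e-09) with shTMLHE 1 and rose by 0.48 ± 0.09 with shTMLHE 2 (adjusted p = 1.29e-05). The last value reversed to -0.49 (adjusted p = 1.11e-05) with the trend removed. POLA2, its partner, was low at 12.7, 10.9 and 10.9 CPM in control, 9.86, 7.92 and 8.93 with CCNE1, 8.66, 9.85 and 10.2 with shTMLHE 1, and 6.58, 6.55 and 7.35 with shTMLHE 2. The control libraries were the highest and the shTMLHE 2 libraries the lowest.

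POLA2 gave -0.38 ± 0.16 (adjusted p = 0.0447), 0.11 ± 0.15 (adjusted p = 0.567) and -0.38 ± 0.16 (adjusted p = 0.0276). Without control replicate 1 or CCNE1 replicate 2 the first was -0.30, and it failed to pass without any 1 of the 12 libraries except CCNE1 replicate 1, and with the trend removed (-0.31). The third did not pass without CCNE1 replicate 1 (-0.31) or shTMLHE 2 replicates 1 or 2 (-0.35 for each), and was 0.15 by total counts, not passing. Some 35.1% of POLA2 exon bases are shared with another gene. The primase subunits PRIM1 and PRIM2, which lay RNA primers, rose with CCNE1 by 0.48 and 0.33 and fell with shTMLHE 1 by 0.56 and 0.22. The rise of PRIM2 was -0.06 with the trend removed and its fall was 0.17 by total counts, neither passing. The rise of PRIM1 was 0.13 with the trend removed, its fall was -0.17 by total counts, and its rise was 0.32 without control replicate 2 and 0.35 without CCNE1 replicate 2, none of these passing. The fall of PRIM2 also did not pass without CCNE1 replicate 1 (-0.21) or 2 (-0.20) or shTMLHE 1 replicate 1 (-0.21) or 3 (-0.12). Of polymerase epsilon, which copies the leading strand, POLE2 rose with CCNE1 by 0.94, and POLE fell with shTMLHE 2 by 0.42, which reversed to 0.11 by total counts.

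The clamp PCNA and the genes of its loader also parted. PCNA held 162, 159 and 152 CPM in control, 229, 203 and 219 with CCNE1, 160, 151 and 144 with shTMLHE 1, and 159, 172 and 169 with shTMLHE 2. The CCNE1 libraries were above all others, which overlapped one another. PCNA rose by 0.46 ± 0.05 (adjusted p = 2e-10) and fell by 0.51 (SE 0.05, adjusted p = 1.95e-12) and 0.38 (SE 0.05, adjusted p = 1.6e-09), the last reversing to 0.15 by total counts. RFC2 held 201, 201 and 209 CPM in control, 239, 259 and 245 with CCNE1, 146, 145 and 146 with shTMLHE 1, and 118, 117 and 114 with shTMLHE 2. Its groups did not overlap, and it gave 0.28 ± 0.04 (adjusted p = 3.53e-07), -0.77 ± 0.04 (adjusted p = 3.47e-19) and -1.09 ± 0.04 (adjusted p = 1.94e-24).

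RFC1, the large subunit of the loader, rose at each step. Its libraries held 22.7, 19.3 and 23.8 CPM in control, 37.2, 39.9 and 39.0 with CCNE1, 53.1, 49.1 and 47.4 with shTMLHE 1, and 93.1, 93.4 and 90.6 with shTMLHE 2. The groups did not overlap. The values were 0.82 ± 0.08 (adjusted p = 6.62e-11), 0.36 ± 0.07 (adjusted p = 2.79e-05) and 1.25 ± 0.07 (adjusted p = 3.15e-19), and all were stable to scaling. RFC5 held 67.0, 63.9 and 74.3 CPM in control, 87.8, 79.8 and 80.2 with CCNE1, 54.8, 56.2 and 47.0 with shTMLHE 1, and 60.8, 56.5 and 52.9 with shTMLHE 2. The hairpin groups overlapped below control. RFC5 gave 0.27 ± 0.07 (adjusted p = 0.00155), -0.64 ± 0.07 (adjusted p = 1.73e-10) and -0.54 ± 0.07 (adjusted p = 5.2e-09), the last being -0.01 by total counts. RFC4 rose with the hairpins by 0.47 and 0.62, RFC3 with CCNE1 and shTMLHE 2 by 0.86 and 0.78 (the latter 0.09 with the trend removed, not passing), and DSCC1, of the alternative loader that acts in sister chromatid cohesion, by 0.68 and 0.98.

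Replication protein A, the trimer that coats single-stranded DNA, changed unevenly with CCNE1. RPA3, the smallest subunit, held 40.6, 43.4 and 39.5 CPM in control, 71.5, 72.0 and 68.3 with CCNE1, 25.6, 29.2 and 36.1 with shTMLHE 1, and 31.0, 36.0 and 28.2 with shTMLHE 2. CCNE1 was above and both hairpins below control, the hairpins overlapping. The values were 0.78 ± 0.09 (adjusted p = 1.09e-08), -1.22 ± 0.09 (adjusted p = 7.37e-14) and -1.15 ± 0.09 (adjusted p = 1.06e-13), and at 43% GC RPA3 kept -1.09 and -1.42 with the trend removed. RPA2 held 218, 214 and 224 CPM in control, 195, 190 and 180 with CCNE1, 134, 139 and 135 with shTMLHE 1, and 141, 143 and 140 with shTMLHE 2. It was highest in control, and no groups overlapped.

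RPA2 fell by 0.21 (SE 0.04, adjusted p = 4.52e-05), 0.47 (SE 0.04, adjusted p = 1.05e-12) and 0.42 (SE 0.04, adjusted p = 1.18e-11), and by total counts its hairpin values were -0.08, which did not pass, and 0.11, which passed as higher. RPA1 held 336, 333 and 331 CPM in control, 404, 416 and 406 with CCNE1, 385, 403 and 402 with shTMLHE 1, and 319, 306 and 307 with shTMLHE 2. The CCNE1 and shTMLHE 1 groups nearly touched. RPA1 gave 0.29 ± 0.03 (adjusted p = 4.69e-09), -0.04 ± 0.03 (adjusted p = 0.269) and -0.40 ± 0.03 (adjusted p = 2.98e-13). By total counts its hairpin values were 0.35 and 0.13, both passing as higher. With the trend removed they were -0.13 and -0.58, both passing as lower.

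LIG1, which seals Okazaki fragments, did not pass with CCNE1 on the TMM scale and fell with the hairpins. It held 101, 101 and 103 CPM in control, 98.5, 102 and 110 with CCNE1, 58.4, 63.4 and 63.7 with shTMLHE 1, and 39.3, 39.4 and 40.2 with shTMLHE 2. Control and CCNE1 overlapped, and the hairpin groups were lower and apart. The values were 0.02 ± 0.05 (adjusted p = 0.764), -0.74 ± 0.06 (adjusted p = 1.22e-14) and -1.38 ± 0.06 (adjusted p = 4.54e-23). With the trend removed the CCNE1 value was 0.16 and passed as higher. FEN1, the flap nuclease that acts just before ligation, held 112, 111 and 127 CPM in control, 148, 142 and 143 with CCNE1, 114, 111 and 128 with shTMLHE 1, and 98.0, 97.8 and 91.6 with shTMLHE 2. The shTMLHE 1 group overlapped control. FEN1 gave 0.31 ± 0.05 (adjusted p = 1.06e-05), -0.29 ± 0.05 (adjusted p = 8.75e-06) and -0.59 ± 0.05 (adjusted p = 1.13e-12), but 0.10 and -0.06 by total counts and -0.07 and -0.11 with the trend removed for the hairpins, none of which passed.

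The chromatin assembly factor 1 genes place histones on new DNA. CHAF1A held 51.6, 53.6 and 55.4 CPM in control, 65.5, 63.1 and 56.6 with CCNE1, 56.4, 66.2 and 64.3 with shTMLHE 1, and 30, 29.3 and 29.1 with shTMLHE 2. The shTMLHE 2 libraries stood apart below all others. The values were 0.21 ± 0.07 (adjusted p = 0.0177), 0.01 ± 0.07 (adjusted p = 0.883) and -1.07 ± 0.07 (adjusted p = 2.8e-16), the last -0.24 and still passing with the trend removed. The shTMLHE 1 value was 0.41 by total counts and 0.45 with the trend removed, both passing as higher. The first did not pass without control replicate 1 (0.18), CCNE1 replicate 1 (0.16) or CCNE1 replicate 2 (0.19). CHAF1B held 35.4, 38.0 and 43.4 CPM in control, 40.2, 38.7 and 38.0 with CCNE1, 27.8, 27.7 and 28.9 with shTMLHE 1, and 30.2, 27.7 and 30.5 with shTMLHE 2. Both hairpin groups were below the others and overlapped each other. CHAF1B gave 0.00 ± 0.08 (adjusted p = 0.981), -0.47 ± 0.08 (adjusted p = 6.21e-06) and -0.40 ± 0.08 (adjusted p = 3.91e-05), but -0.08 and 0.13 by total counts for the hairpins, neither passing.

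Base composition moved with these changes. Across the 48 members, whose exons span 38 to 65.8% GC with a median of 47.3% (50.3% over all tested genes), the log2 fold change ran against GC content with a Spearman correlation of -0.483 with CCNE1, -0.48 with shTMLHE 1 and -0.781 with shTMLHE 2. Over all tested genes the values were -0.374, -0.359 and -0.628, in the same direction. The 16 members lowest in GC had a median of 0.45 with shTMLHE 2 (9 higher, 2 lower), the middle 16 had -0.15 (6 higher, 8 lower) and the highest 16 had -1.28 (1 higher, 15 lower). With the trend on GC content and transcript length removed from each library, the members' medians were 0.28 with CCNE1, -0.41 with shTMLHE 1 and -0.36 with shTMLHE 2, against 0.00, 0.04 and 0.01 over all genes. That fit gave 31 members higher and 1 lower with CCNE1, against 19.6 and 17.3% of all genes. It gave 7 higher and 29 lower with shTMLHE 1, against 28.7 and 27.3%, and 11 higher and 29 lower with shTMLHE 2, against 31.2 and 31.6%. Whether the composition of the libraries arose in the cells or in their preparation was not tested.

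**Figure D4:**
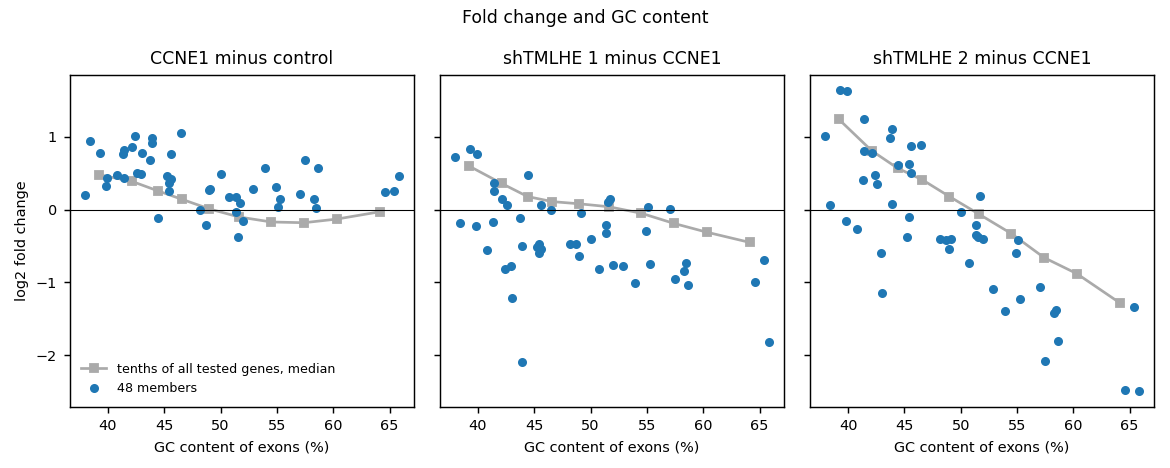
Log2 fold change (y axis) against the GC content of exons in percent (x axis) for the 48 members (blue points), with the medians of all tested genes in 10 equal bins of GC content (grey squares). The grey line for shTMLHE 2 falls from 1.24 in the lowest bin to -1.28 in the highest, and the members fall in the same direction.

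**Figure D5:**
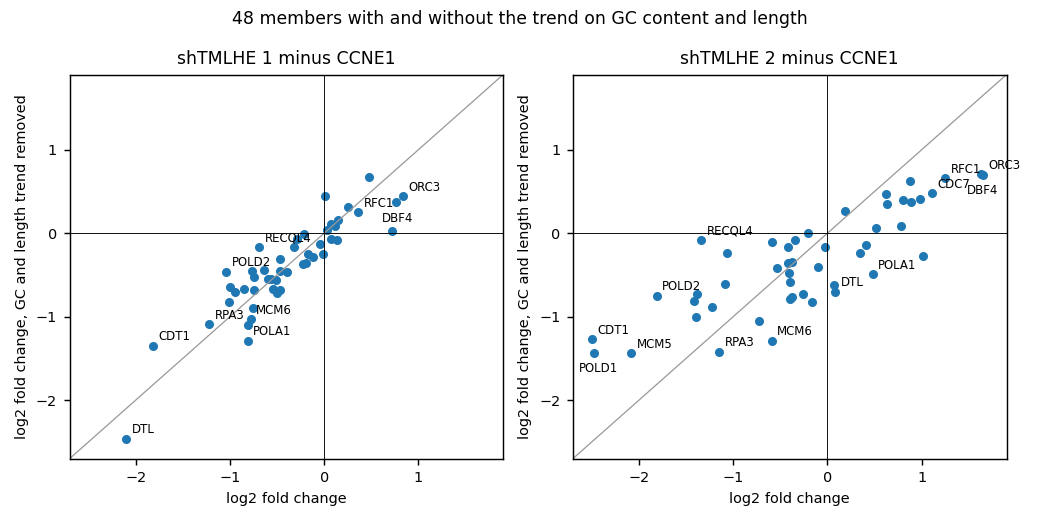
Log2 fold change of the 48 members without (x axis) and with (y axis) removal of the trend on GC content and length, for each hairpin against CCNE1; the grey diagonal marks equal values. CDT1 moves from -2.50 to -1.27 and POLD1 from -2.48 to -1.43 with shTMLHE 2, and POLA1 crosses from 0.48 to -0.49.

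The hairpins were also compared with each other. In shTMLHE 1 minus shTMLHE 2, 15 members (31.2%) were higher, which is at the background of 31.3% of all tested genes, and 21 (43.8%) were lower, against 29%. Stable to scaling were 12 in each direction, against 17.5 and 16.6%. POLD1 (1.48), MCM5 (1.12) and CHAF1A (1.08) were higher with shTMLHE 1, while DTL (-2.18), CDC7 (-1.61), GINS1 (-1.22), CDC6 (-1.05) and MCM10 (-0.90) were lower, all under every scaling. The difference in CDT1, 0.68, was -0.07 with the trend removed and did not pass.

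Set against control in place of CCNE1, both hairpin groups held members below and above the control level. With shTMLHE 1, 19 members were above control, against 35.3% of all genes, and 20 below, against 33.4%. With shTMLHE 2, 21 were above, against 39%, and 22 below, against 39.1%, and these counts are close to their background. CDT1 was lower than control by 1.36 and 2.04 on the log2 scale with the hairpins, POLD1 by 0.76 and 2.24, MCM2 by 0.70 and 1.27, and MCM7 by 0.61 and 1.08, under every scaling. ORC3 was higher than control by 1.63 and 2.43, DBF4 by 1.2 and 2.07, RFC1 by 1.18 and 2.07 and GMNN by 0.69 and 1.24, also under every scaling. All 48 members together took 0.457 to 0.458% of counts in control, 0.566 to 0.568% with CCNE1, 0.474 to 0.483% with shTMLHE 1 and 0.476 to 0.481% with shTMLHE 2. In bulk RNA, fewer cells in S phase and less RNA per cell cannot be told apart.

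Among 39 other replication genes, all tested, 25 rose and 5 fell with CCNE1 (median 0.39), 11 rose and 15 fell with shTMLHE 1 (median 0.07), and 22 rose and 12 fell with shTMLHE 2 (median 0.35). By total counts the shTMLHE 1 counts turned to 27 higher and 6 lower (median 0.46), and with the trend removed those of shTMLHE 2 were 14 higher and 14 lower (median 0.07). Named for the smallest larger p of both hairpins are POLE4 and RNASEH2C. POLE4, a small subunit of polymerase epsilon, fell by 0.90 and 1.37 with the hairpins, and RNASEH2C, of the RNase that removes ribonucleotides from DNA, by 1.28 and 1.57. Other genes of the list rose with both hairpins, such as TOP1 by 0.55 and 1.38 and RIF1 by 1.17 and 1.80. SUPT16H, of the histone chaperone FACT, and UHRF1, which copies DNA methylation marks, rose with CCNE1 by 0.80 and 0.66. Of 20 mitotic genes, 17 rose and 1 fell with CCNE1 (median 0.65), 13 rose and 6 fell with shTMLHE 1 (median 0.46), and 14 rose and 4 fell with shTMLHE 2 (median 0.61). With the trend removed the mitotic counts were 10 higher and 8 lower with shTMLHE 1 (median 0.05), and 7 higher and 7 lower with shTMLHE 2 (median -0.03). Of all tested genes, as given above, 25.1% rose and 19.1% fell with CCNE1, 30.4 and 30.3% with shTMLHE 1, and 36.8 and 36.2% with shTMLHE 2.

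The E2F genes did not move as one. E2F1, an activator of replication genes, held 113 ± 2.52 CPM in control, 141 ± 2.18 with CCNE1, 68.1 ± 3.39 with shTMLHE 1 and 37.1 ± 2.6 with shTMLHE 2 (SD, n = 3), with log2 fold changes of 0.32, -1.05 and -1.93, all passing. E2F2 fell with the hairpins by 0.85 and 0.93, whereas E2F3 rose by 0.70 and 0.87 and the repressor E2F7 by 0.92 and 1.41. E2F4 fell by 0.19 and 0.38, and E2F8 passed with neither hairpin (-0.28 and 0.44). CCNE2, at 1.58 ± 0.3 CPM in the CCNE1 group, rose with the hairpins by 1.16 and 2.76. The values of this paragraph are on the TMM scale only. CDKN1A, the gene of the CDK inhibitor p21, fell with CCNE1 by 1.12, rose with shTMLHE 1 by 1.13 and fell with shTMLHE 2 by 0.82. CDKN1B, the gene of p27, fell with shTMLHE 1 by 0.66 and rose with shTMLHE 2 by 0.66. The CCNE1 transcript averaged 1269 ± 49 CPM in the shTMLHE 1 group and 847 ± 21.2 CPM in the shTMLHE 2 group.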

How the data were processed

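Total RNA of 12 Ovcar8 libraries, 3 in each of 4 groups, was sequenced after NEBNext library preparation, per the labels' protocols. STAR 2.6.1 and the build GRCh38 are named in the submitters' processing notes, and no source used here names the counting tool or its strand setting. The authors deposited raw read counts per gene and FPKM, a level per transcript length and library size. From the counts, genes were filtered with filterByExpr, which left out 43357 genes, scaled by TMM and tested with edgeR 4.0.16 (R 4.3.3; quasi-likelihood, robust) in one fit over all 12 libraries with 8 residual degrees of freedom. P-values were adjusted by Benjamini and Hochberg over 15378 genes, and a call needs an adjusted p under 0.05. Log2 fold changes are given with their standard error. FPKM was used for levels between genes and in limma 3.58.1 with pseudocounts of 0.1 and 1.

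Other fits used RLE or total counts, other filters, DESeq2 1.42.0, limma-voom, only the groups compared, a replicate block, each library left out, and removal of a trend on GC content and transcript length (splines with 4 degrees of freedom each). No pairing by replicate number was visible, as none of 18 same-number pairs correlated above 0.1. This check could miss a weak pairing. The scripts were tested on simulated counts. All members are named by role. Library values and full statistics are given, within each role, for the smallest p with CCNE1 and the smallest larger p of both hairpins, for members called in opposite directions by the hairpins, and for those called against most of their role; DTL and ORC3 were added after their values were seen. The 48 members, the lists and the rule were chosen with earlier results of these data known. Depth limits low members such as ORC5 and POLA2 most.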

Additional observations from a re-analysis of the deposited data

Results flagged for a closer look

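The hairpins were compared with each other for every member, as shTMLHE 1 minus shTMLHE 2 on the log2 scale with edgeR's quasi-likelihood test, and 36 members differed. The 2 comparisons share the CCNE1 libraries, which cancel in this difference. Higher with shTMLHE 1 were POLD1 (1.48), MCM5 (1.12), CHAF1A (1.08), POLD2 (0.77), CDT1 (0.68), RECQL4 (0.65), LIG1 (0.64), MCM2 (0.57), POLA2 (0.49), MCM7 (0.47), POLE (0.45), GINS2 (0.38), RPA1 (0.35), RFC2 (0.32) and FEN1 (0.30). Lower with shTMLHE 1 were DTL (-2.18), CDC7 (-1.61), POLA1 (-1.29), GINS1 (-1.22), DSCC1 (-1.11), CDC6 (-1.05), MCM10 (-0.90), RFC1 (-0.89), DBF4 (-0.87), ORC3 (-0.81), ORC6 (-0.81), RFC3 (-0.64), ORC5 (-0.59), GMNN (-0.55), MCM4 (-0.37), POLD3 (-0.37), MCM3 (-0.35), ORC4 (-0.29), ORC2 (-0.28), MCM6 (-0.19) and PCNA (-0.13).

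The sign ran with GC content, with a Spearman correlation of 0.755 over the 48 members and 0.583 over all tested genes, and of 0.254 over the members with the trend removed. In that fit ORC4 (0.29), MCM6 (0.26) and PCNA (0.20) passed as higher with shTMLHE 1, and RECQL4 (-0.09) as lower, each reversed. The differences of 4 members did not pass without some single libraries, with log2 values that kept their sign. ORC2 did not pass without shTMLHE 1 replicate 1 (-0.20) or shTMLHE 2 replicate 2 (-0.26), and PCNA not without shTMLHE 1 replicate 3 (-0.10) or shTMLHE 2 replicate 2 (-0.11). ORC4 did not pass without shTMLHE 1 replicates 1 (-0.23) or 3 (-0.30) or any library of shTMLHE 2 (-0.33, -0.27 and -0.28). ORC5 did not pass without shTMLHE 1 replicates 1 (-0.59) or 2 (-0.41) or shTMLHE 2 replicates 1 (-0.53) or 2 (-0.58).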

How the results depend on the processing

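A part of all member values, 189, was followed through the other fits. Outside this part, some calls changed with RLE. There the share of member calls that were higher went from 48.8 to 52.3% for shTMLHE 2 minus control. For shTMLHE 1 minus shTMLHE 2 it went from 41.7 to 40.5%. Of the 189 values, all kept their direction and call with RLE and with limma-voom, and 188 with DESeq2. With the replicate block, for which no pairing was visible (correlations of -0.0465 to 0.0263, with 10 of 36 comparisons highest for a library's own number), 188 did. The members counted higher and lower with CCNE1 were then 36 and 2, and the shares of all tested genes in that fit are not given. Leaving out each of 12 libraries gave 2209 values with the same direction and call, 48 that no longer passed, 3 that newly passed and 8 that changed sign. The members lower with CCNE1 were then 1 to 2, those lower with shTMLHE 2 were 23 to 26, and those lower with both hairpins 20 to 22. These counts also have no share of all tested genes beside them.

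Requiring a change of at least 1.5-fold left 13 members higher and 0 lower with CCNE1, 3 higher and 18 lower with shTMLHE 1, and 15 lower with shTMLHE 2. It left 7 higher and 13 lower between the hairpins, 9 and 9 for shTMLHE 1 against control, 13 lower for shTMLHE 2 against control, 3 higher and 13 lower with both hairpins, and 2 opposed. The shares of all tested genes at this fold change are not given, so these counts have no background beside them. Counts of members higher with shTMLHE 2, against CCNE1 or control, are left out here as well. An adjusted p under 0.01 left 1 lower with CCNE1, also without a share of all tested genes beside it.

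By total counts, 16 members were higher with shTMLHE 1, and 29 higher and 13 lower with shTMLHE 2, with the shares of all genes given above. With both hairpins 14 were higher, against 41.3% of all tested genes, and 12 lower, against 11.8%. Set against control, 27 were higher with shTMLHE 1, against 50%, and 11 lower, against 20.6%. For shTMLHE 2, 30 were higher than control, against 51.9%, and 12 lower, against 26.8%. Among the 189 values, signs changed with shTMLHE 1 for CDC45 (0.18) and RPA1 (0.35), both passing as higher. They also changed there for GINS3 (0.08), PRIM2 (0.17) and FEN1 (0.10), none passing. With shTMLHE 2, MCM3 (0.11), CDC45 (0.18), GINS3 (0.32), POLE (0.11), PCNA (0.15), RPA1 (0.13) and RPA2 (0.11) turned and passed as higher. POLA2 (0.15) and CHAF1B (0.13) turned with shTMLHE 2 and CHAF1B (-0.02) with CCNE1, none passing. Of members that did not pass under TMM, signs also changed for MCM10 (0.38, passing), ORC5 (0.22), POLE2 (0.21) and DSCC1 (0.27) with shTMLHE 1, and for MCM4 (0.49), PRIM2 (0.37) and POLD3 (0.43), all 3 passing, and PRIM1 (0.27) with shTMLHE 2. With their sign kept, ORC5 (0.94), DTL (0.60) and POLE2 (0.60) newly passed as higher with shTMLHE 2.

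With the GC and length trend removed, alone or with the replicate block, 1 member was lower with CCNE1 and 13 (27.1%) lower between the hairpins. Of all tested genes, 17.3 and 23.2% were lower without the block, so the second count is near its background. Among the 189 values, signs changed with shTMLHE 2 for ORC2 (-0.24), ORC4 (-0.27), GINS3 (0.00) and POLA1 (-0.49). POLA1 then passed as lower in both fits, and ORC2 only in the fit without the replicate block. With CCNE1 signs changed for CDC45 (0.06), PRIM2 (-0.06) and CHAF1B (-0.07), none passing. Between the hairpins signs changed for ORC4 (0.29), MCM6 (0.26), RECQL4 (-0.09) and PCNA (0.20), all passing in the reversed direction. They also changed for ORC2 (0.17) and CDT1 (-0.07), neither passing. Against control signs changed for CDC7 (-0.01) and CDC6 (-0.09) with shTMLHE 1, and DTL (-0.07, or -0.06 with the replicate block) with shTMLHE 2. Outside the 189, other values against control that passed under TMM then passed in the opposite direction. These were MCM5 (0.12), RECQL4 (0.13) and POLD2 (0.29) with shTMLHE 1. With shTMLHE 2 they were ORC4 (-0.55), POLD3 (-0.22), RECQL4 (0.23) and FEN1 (0.35). Of members that did not pass under TMM, signs also changed for DTL (-0.70) and POLE2 (-0.62), both then passing as lower, and ORC5 (-0.14) with shTMLHE 2, for ORC2 (-0.07) and RFC3 (-0.08) with shTMLHE 1, and for ORC4 (-0.27) with CCNE1. Between the hairpins they did for PRIM2 (0.45) and RPA3 (0.34), both then passing, and for PRIM1 (0.18), POLE2 (0.26), RFC4 (0.20), RPA2 (0.05) and CHAF1B (0.11). With their sign kept, MCM4 (-0.16), PRIM1 (-0.73), PRIM2 (-0.83) and POLD3 (-0.40) newly passed as lower with shTMLHE 2. GINS3 (0.27), GINS4 (0.17), POLE (0.16) and LIG1 (0.16) newly passed as higher with CCNE1. The cause was not tested.

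The remaining sign changes among the 189 were in values near 0 that did not pass. LIG1 with CCNE1 was 0.00 in the fit of only the groups compared and in both limma fits of FPKM, and -0.02 without CCNE1 replicate 3. CHAF1A with shTMLHE 1 was -0.01 in both limma fits, and -0.05 to -0.01 without single libraries (-0.03 without shTMLHE 1 replicate 2). CHAF1B with CCNE1 was -0.01 with a filter of 1 CPM in 3 libraries, -0.02 with only the groups compared, -0.02 and -0.01 in the limma fits, and -0.06 to 0.09 without single libraries. CDC45 with CCNE1 was 0.00 without control replicate 2.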
